A study of Mus musculus with 4 samples.

Results

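The 10 genes described here are spliceosomal and U3 small nuclear RNA (snRNA) genes of the mouse with Tet1 ChIP-seq peaks in spermatogonia. They are the U1 gene Rnu1a1, the U5 gene Rnu5g, the 4 Rnu3b genes for U3, numbered Rnu3b1 to Rnu3b4, and 4 predicted snRNA genes, Gm22317, Gm24407, Gm24950 and Gm23971. They were chosen by name from the peak lists analysed here, by their peaks and by whether the other genotype listed one, out of 997 annotated snRNA genes. A peak was assigned to a gene when its summit lay inside the gene or within 500 bp of it. By this rule the 10 genes held 10 of the 373 wild-type (WT) peaks and 3 of the 247 Tet1 knockout (KO) peaks.

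Chromatin was immunoprecipitated with a Tet1 antibody from flow-sorted spermatogonia (20000 cells per the labels), the mitotic germ cells of the testis. The mice were of strain 129 and 3 months old, either wild type or Tet1 knock out. Each genotype had 1 ChIP library and 1 input library made without antibody, 4 libraries in all, so that no value has a replicate check and no test compares the genotypes. How many mice gave the cells, which part of Tet1 was deleted and whether Tet1 protein was lost are not given in the sources used here. The Tet1 gene had no summit within 500 bp in either list, so the lists do not check the genotype labels, and peak lists hold no expression by which to check the cell type.

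Small nuclear RNAs are short noncoding RNAs that work as protein complexes in the nucleus. U1 pairs with the start of an intron, U2 with its branch point, and U5 holds the exon ends together during splicing. U3 acts in the nucleolus, where its complex is needed to cut the ribosomal RNA precursor; the RefSeq table used here types its genes as snRNA. Most of these genes are transcribed by RNA polymerase II from compact promoters that need the SNAPc complex, whereas U6 is made by RNA polymerase III. They occur in several near-identical copies, often clustered. Tet1 is a dioxygenase that oxidises 5-methylcytosine.

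The WT ChIP library held 3081692 tags after the duplicate filter and the KO library 2235818, a ratio of 1.38. Pileups were scaled to tags per 1000000 filtered ChIP tags (RPM), so that 1 tag was worth 0.324 RPM in WT and 0.447 RPM in KO. The pileup of the peaks at the 10 genes, a count of extended ChIP tags at the summit, ran from 7 to 18 tags in WT, with a median of 13.5, and from 10 to 12 in KO. The median pileup over all peaks was 8 tags in WT and 12 in KO. The median of peaks with an input background under 10 times the genome-wide value (low-input peaks) was 7 in both lists.

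In WT all 10 genes had a peak and in KO 3 did (Rnu1a1, Gm24950 and Gm23971). Of all 997 annotated snRNA genes, 1.6% had a WT summit within the window and 1% a KO summit. For genes of any type these shares were 0.685% and 0.312%. Because the 10 genes were chosen from these peaks, the counts describe the choice. Of their 10 WT peaks, 7 had no overlapping KO peak, next to 67.3% of all WT peaks and 80.9% of the low-input ones. None of the 3 KO peaks lacked a WT overlap, against 50.6% of all KO peaks and 56.1% of the low-input ones. Each of the 10 genes was chosen with a WT peak and with its KO listing known, so the choice largely fixed both overlap counts. Over all snRNA genes, 8 of 10 KO peaks had a WT overlap.

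**Figure D1:**
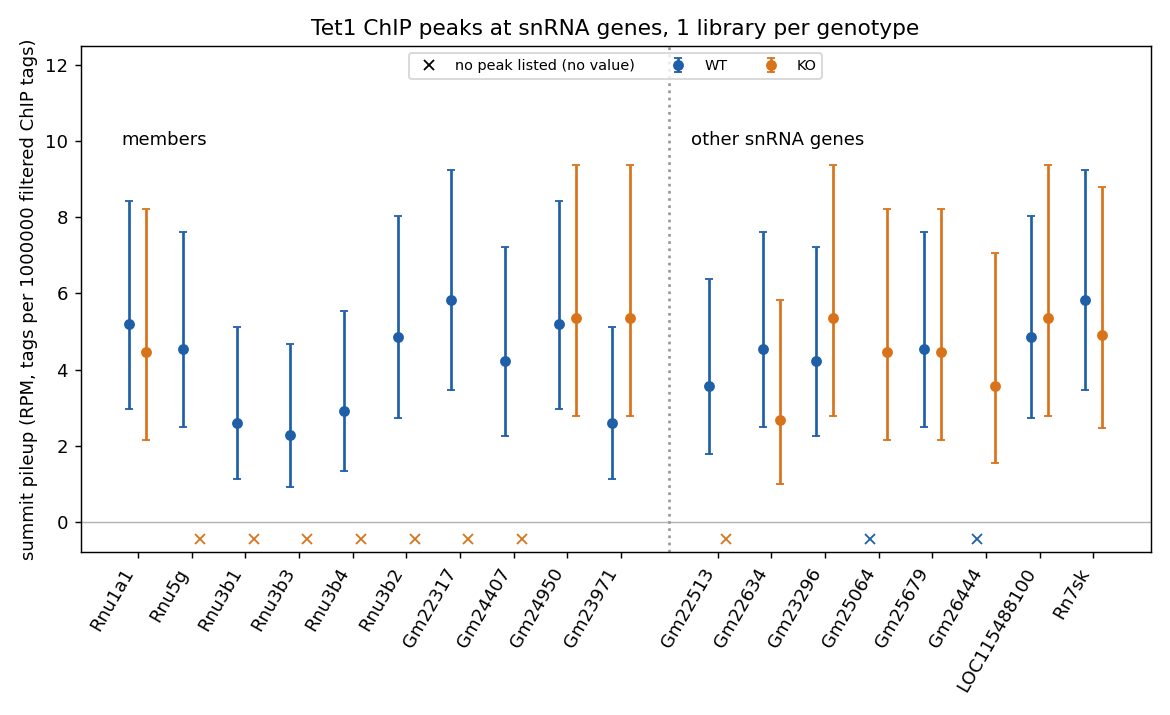
Summit pileup in tags per 1000000 filtered ChIP tags at the 10 genes (left, marked members) and at the 8 other snRNA genes with a peak (right), in WT (blue) and KO (orange), 1 library each; bars are exact Poisson 95% intervals and crosses mark genes with no listed peak, which have no value. The 7 crosses on the left are all KO, whereas on the right 1 is KO and 2 are WT.

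Rnu1a1 encodes U1, the RNA that recognises the 5′ splice site. It lies at chr11:87422867-87423030 (mm10), inside Tex14, a gene for an intercellular bridge protein of germ cells. The WT peak had 16 tags (5.19 RPM, exact Poisson 95% interval 2.97 to 8.43) and a fold enrichment over input of 11.2. In KO it had 10 tags (4.47 RPM, 2.14 to 8.23) and a fold of 6.88. The summits lay 3 bp (WT) and 14 bp (KO) outside the lower-coordinate end of the gene and 11 bp from each other. Both libraries thus placed the summit at the same end of the gene. The depth-corrected ratio of WT to KO tags was 1.16 (exact conditional 95% interval 0.495 to 2.86), while the ratio of the folds was 1.62. The fold adds 1 to the pileup and to the background, which was 0.520 tags in WT and 0.598 in KO. At such low backgrounds the ratio of folds is only partly corrected for depth, so it does not show a larger WT excess. The local input background was 1.52 times the genome-wide value in WT and 2.41 times in KO. None of the other 3 genes with a U1 symbol, Rnu1b1, Rnu1b2 and Rnu1b6 on chromosome 3, had a summit nearer than 37.5 kb in WT or 41.1 kb in KO.

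Rnu5g encodes U5 and lies at chr9:65201726-65201841, inside the long noncoding RNA gene Gm40527. Its WT peak had 14 tags (4.54 RPM) and a fold of 9.87, with the summit inside the gene, 21 bp from its higher-coordinate end. The KO list had no summit nearer than 464 kb. A snRNA gene of the same length, 116 bp, Gm25313, lies 5038 bp away inside the same long noncoding gene and had no peak in either list. Of the 9 annotated snRNA genes of 116 bp, Rnu5g was the one with a peak. How reads matching several copies were placed is not given, so the assignment of its tags to this copy is uncertain.

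All 4 Rnu3b genes, which encode U3, lie inside Tex14 and had a WT peak. Rnu3b1 and its summit also lie inside the long noncoding RNA gene LOC115487798. At Rnu3b1 (chr11:87443237-87443451) the WT pileup was 8 tags with a fold of 4.82. At Rnu3b3 (chr11:87448627-87448841) it was 7 tags with a fold of 5.96. At Rnu3b4 (chr11:87462286-87462503) it was 9 tags with a fold of 6.69. With Gm23971, these 3 were the lowest WT peaks of the 10 genes, at 2.27 to 2.92 RPM. Rnu3b2 (chr11:87471368-87471582) was the highest, with 15 tags (4.87 RPM, 2.72 to 8.03) and a fold of 8.56. Its interval overlaps those of the other 3, so the order among the U3 genes is within counting error. The KO list had no summit within 20.3 kb of any of the 4. The remaining U3 gene of the table, Rnu3a on chromosome 10, had no summit within 13.1 Mb in WT or 33.7 Mb in KO.

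The Tex14 peaks lay at its snRNA genes alone. Tex14 spans 151 kb and held 5 WT peaks and 1 KO peak, and none of them had its summit away from a snRNA gene. The WT summits lay 17.9 kb (Rnu1a1) to 66.4 kb (Rnu3b2) downstream of the start of Tex14, which is on the plus strand. In all, 7 snRNA genes are annotated inside Tex14. The other two are Gm22068, a gene of 164 bp like Rnu1a1 lying 3685 bp after it, and Gm23137, of 107 bp, between Rnu3b1 and Rnu3b3. Neither had a peak. Summed over the snRNA genes inside Tex14, WT had 55 tags at 5 summits (17.8 RPM) and KO 10 tags at 1 (4.47 RPM). The 5 listed genes were all chosen with these peaks known, and the KO pileup at those not listed in KO is unknown.

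**Figure D2:**
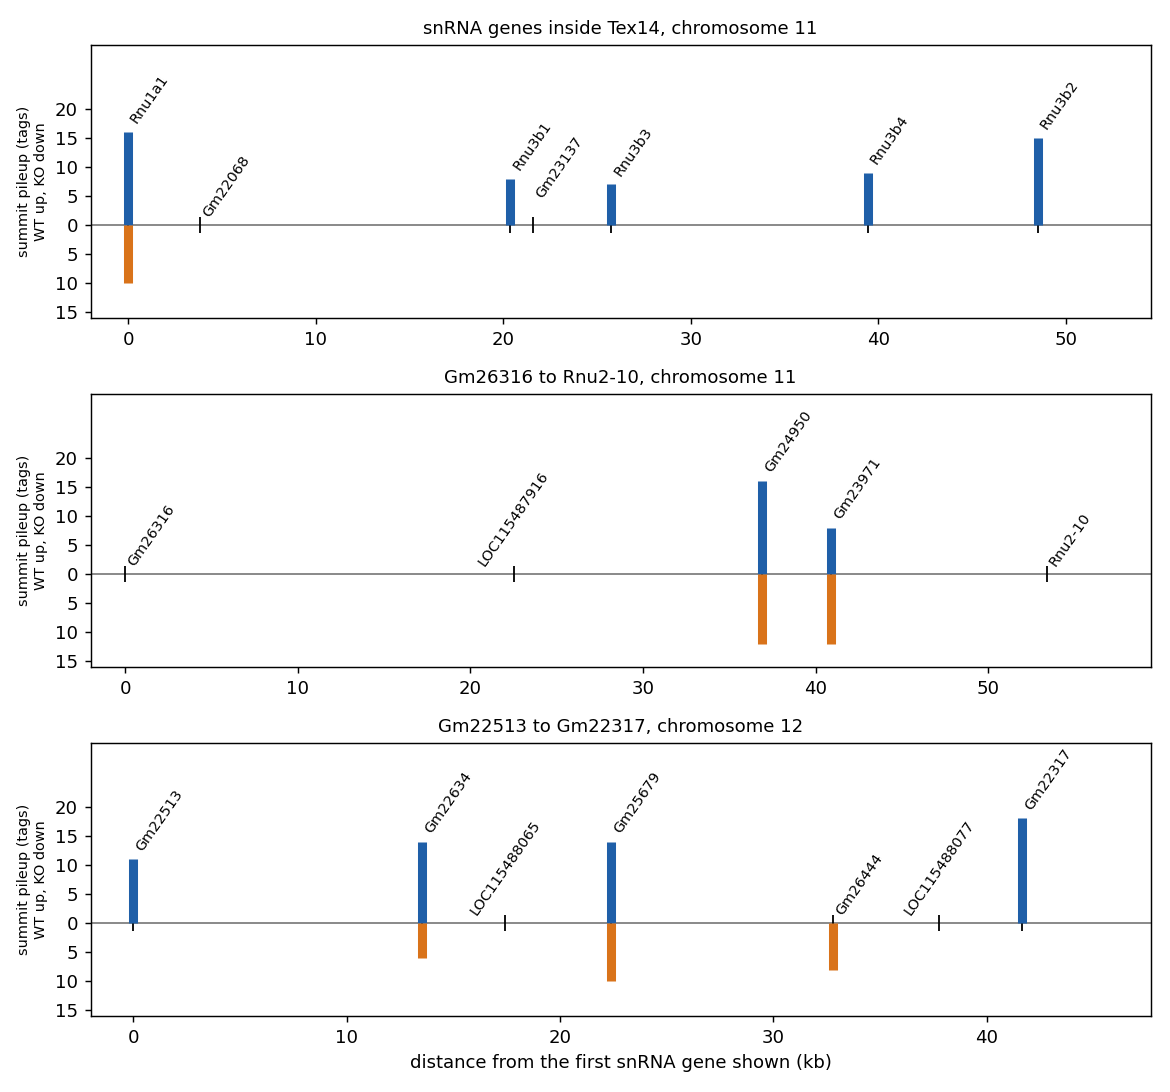
Summit pileup in tags (y axis, WT in blue upwards, KO in orange downwards) at each annotated snRNA gene of 3 clusters, against distance in kb from the first snRNA gene shown; black ticks mark genes and a tick with no bar is a gene with no listed peak. Inside Tex14 the WT list has 5 bars and the KO list 1, the array ending at Rnu2-10 has 2 of each, and the array on chromosome 12 has 4 WT and 3 KO bars at partly different genes.

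Gm24950 and Gm23971 were listed in both genotypes. They are predicted snRNA genes of 191 bp at chr11:101641748-101641938 and chr11:101645740-101645930, 3801 bp apart, and belong to a run of 5 snRNA genes that ends at Rnu2-10, a U2 gene. Gm24950 had 16 WT tags (5.19 RPM) and 12 KO tags (5.37 RPM), and the ratio was 0.967 (0.429 to 2.24). Gm23971 had 8 WT tags (2.60 RPM) and 12 KO tags (5.37 RPM), and the ratio was 0.484 (0.172 to 1.29). The KO value was the higher at Gm23971, by fold as well (4.82 in WT and 8.14 in KO), and the interval held 1. Gm26316, LOC115487916 and Rnu2-10, the other 3 genes of the run, had no peak in either list. Summed over the run, both lists had 24 tags at 2 summits, which is 7.79 RPM in WT and 10.7 in KO.

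Gm22317 had the highest pileup and fold of the 10 genes. It is a predicted snRNA gene of 164 bp, the length of Rnu1a1, at chr12:54738459-54738622. Its WT peak had 18 tags (5.84 RPM, 3.46 to 9.23) and a fold of 12.3, the seventh highest of the WT list, with the summit inside the gene. The nearest KO summit lay 8905 bp away, at Gm26444, another gene of 164 bp in the same array. Gm22317 cannot be read apart from that array.

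The array holds 7 snRNA genes of 164 bp in 41.8 kb, and the lists picked partly different copies. The WT list had peaks at Gm22513 (11 tags), Gm22634 (14), Gm25679 (14) and Gm22317 (18). The KO list had peaks at Gm22634 (6 tags), Gm25679 (10) and Gm26444 (8). LOC115488065 and LOC115488077 had none in either list. From Gm22634 to Gm22317 the 6 genes were spaced nearly as a mirror image. The outer gaps were 3746 and 3740 bp and the inner gaps 4781 and 4789 bp, on either side of a central gap of 10275 bp. Gm22317 thus faces Gm22634 in this arrangement, and Gm25679 faces Gm26444. Each of these facing pairs had a gene listed in both genotypes and a gene listed in 1. The listed tags of Gm22634 and Gm22317 summed to 32 in WT and 6 in KO, and those of Gm25679 and Gm26444 to 14 and 18. Over the whole array, WT had 57 tags at 4 summits (18.5 RPM) and KO 24 tags at 3 (10.7 RPM). A gene with no listed peak adds no tags to these sums, though its pileup is not known. How the authors' alignment placed reads that match several copies is not given in the sources used here. The assignment of tags to single copies is therefore uncertain, here as for U1, U2, U3 and U5.

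Gm24407 is a predicted snRNA gene of 141 bp at chr5:115490254-115490394 that overlaps the higher-coordinate end of Sirt4, a mitochondrial sirtuin gene on the minus strand. Its WT peak (chr5:115489964-115490334) had 13 tags (4.22 RPM, 2.25 to 7.21) and a fold of 10.4. The summit lay 139 bp outside the lower-coordinate end of Gm24407 and inside Sirt4, the farthest from its gene among the 10. A second gene of 141 bp, Gm24265, lies 654 bp from Gm24407, and the same summit was 516 bp from it, just outside the window. On the minus strand this end is the start of Sirt4. The peak could therefore be assigned to the start of Sirt4 as well as to Gm24407. The nearest KO summit was 2.53 Mb away.

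Most summits lay at or just outside a gene end. In WT, 4 of the 10 summits were inside the gene, and the other 6 lay 3 to 139 bp outside it, on the lower-coordinate side each time. In KO all 3 summits were outside, by 14 to 123 bp. Every WT peak touched its gene and 6 covered it whole. At the U3 genes Rnu3b1, Rnu3b3 and Rnu3b4 the summits lay 67, 86 and 75 bp outside the same end, whereas at Rnu3b2 it lay 29 bp inside. The strand of the snRNA genes was not given, so these ends are not named as starts or stops. WT and KO summits of the same gene were 11 to 91 bp apart.

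**Figure D3:**
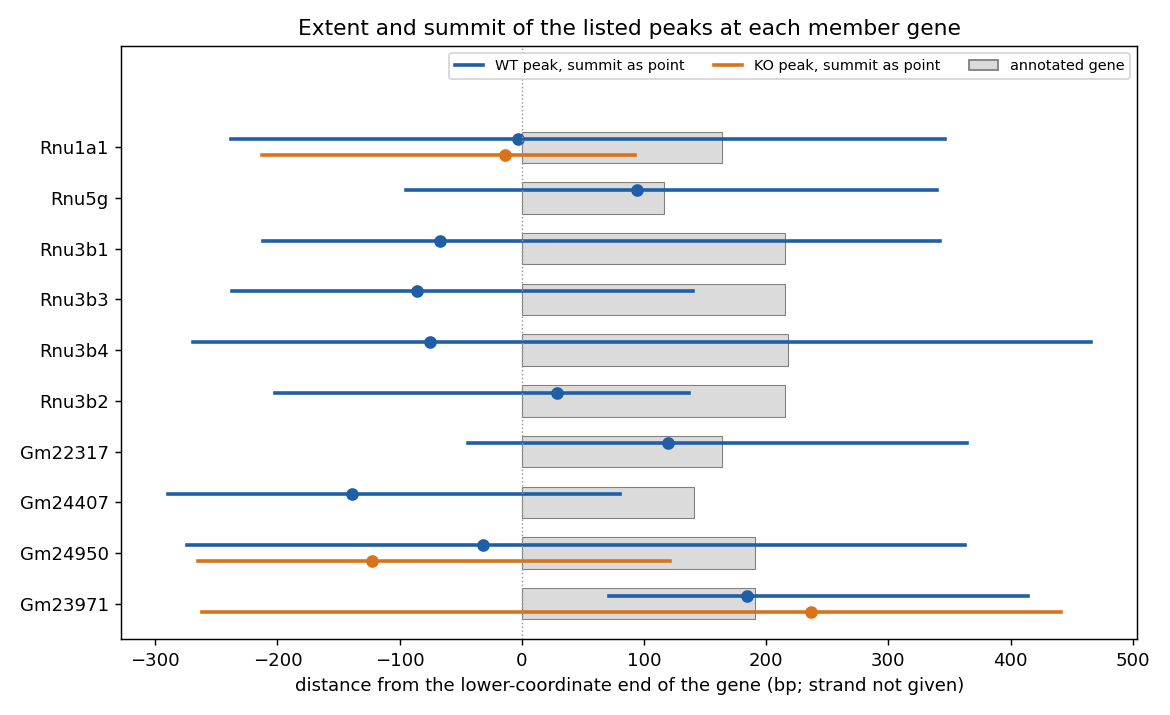
Extent (lines) and summit (points) of the listed WT (blue) and KO (orange) peaks, in bp from the lower-coordinate end of each of the 10 genes, with the gene drawn as a grey bar to scale. The points lie between 139 bp below the gene (Gm24407) and 47 bp above its other end (Gm23971 in KO).

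At the WT signal, scaled to depth, the KO library would have had between 5.08 tags (Rnu3b3) and 13.1 tags (Gm22317) at the summits of the 7 genes listed in WT alone. The value for Rnu3b1 was 5.80 tags, for Rnu3b4 6.53, for Gm24407 9.43, for Rnu5g 10.2 and for Rnu3b2 10.9. The 7 genes were chosen with their WT peak and the lack of a KO peak known, so these values may be too high. The KO list did hold peaks of such heights. Of its 132 low-input peaks, 25 had no more tags than Rnu3b3 would have had and 123 no more than Gm22317 would have had. The counting interval of the value was 2.04 to 10.5 tags at Rnu3b3 and 7.74 to 20.6 at Gm22317. The lowest listed pileup was 4 tags in either list. Listed peaks alone do not show how often a site of a given height goes unlisted. A gene with no listed peak has no pileup in the files, and since no listed peak was narrower than the fragment length (299 bp in WT, 300 bp in KO), a narrower KO peak may have gone unlisted. No ratio can be given for these 7 genes.

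The folds rest on little input. The background at every WT summit of the 10 genes was at most that of 1 input tag after scaling (0.869), and was equal to it, within 0.1%, at 4 of them. At all 3 KO summits it was equal to 1 scaled input tag (0.598) within the same tolerance. Against the genome-wide value the background was 1 to 2.55 times as high in WT and was 2.41 times at each KO summit. The median fold of the 10 WT peaks was 8.83, compared with 5.22 over all WT peaks. These 10 were chosen with their peaks known, so the difference describes the choice. It was not particular to them or to WT. The 6 WT peaks at other snRNA genes had a median of 9.22. In KO the median was 8.14 at the 3 genes and 4.81 over all peaks. All 10 had a q of at most 0.00966 in the WT list, and the 3 KO peaks had one of at most 2.16e-06.

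**Figure D4:**
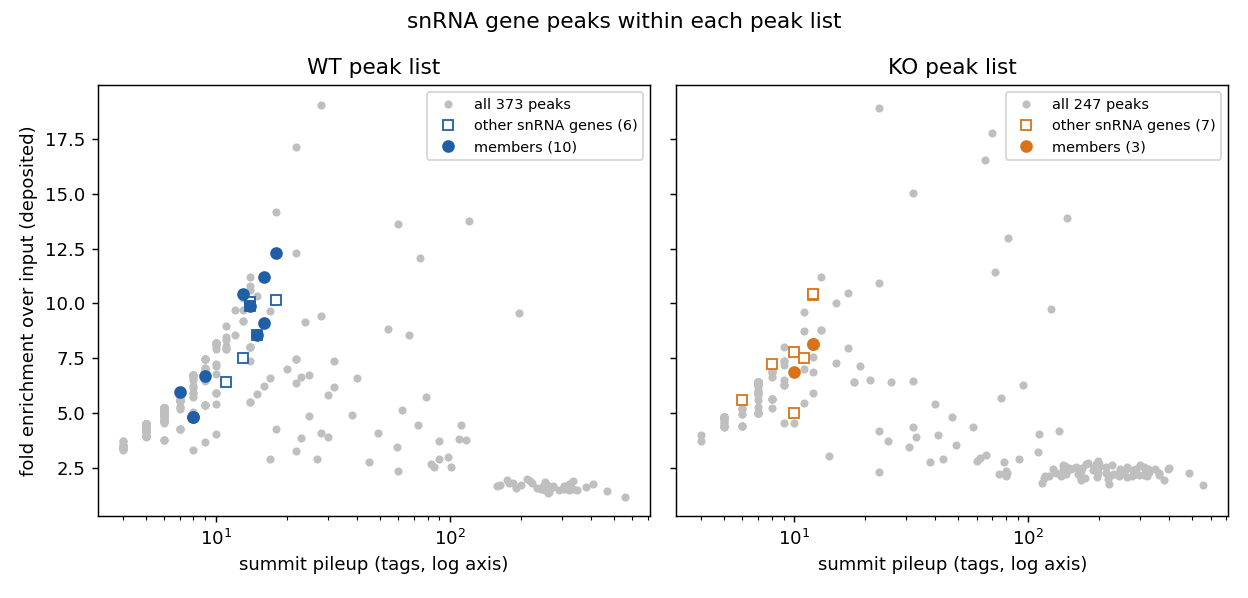
Deposited fold enrichment over input against summit pileup in tags (log axis) for all peaks of the WT list (left) and the KO list (right), grey, with peaks at the 10 genes as filled circles and at other snRNA genes as open squares; some points coincide. The snRNA peaks lie between 6 and 18 tags, among the low-pileup peaks and away from the high-pileup peaks of low fold.

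The choice of the 10 genes also sets which snRNA genes it left out. Of the other 987, 5 had a peak in both lists, 1 in WT alone (Gm22513) and 2 in KO alone (Gm26444 and Gm25064). Over all annotated snRNA genes this makes 8 in both, 8 in WT alone and 2 in KO alone. Thus 8 of 16 WT peaks at snRNA genes (50%, exact binomial 95% interval 24.7 to 75.3) had a KO peak overlapping them, and for KO peaks it was 8 of 10 (80%, 44.4 to 97.5). For all peaks the shares were 32.7% and 49.4%. The intervals take the peaks as independent, but many snRNA peaks lie in clusters, with 5 WT peaks inside Tex14 and 4 in the array on chromosome 12. They may therefore be too narrow. Among low-input peaks, which include all these snRNA peaks, 57 of 298 in WT and 58 of 132 in KO were overlapped. Genotype and library depth cannot be told apart in these counts.

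A pair of predicted snRNA genes of 107 bp, LOC115488100 and Gm23296, lies 590 bp apart inside the long noncoding RNA gene Gm35239 on chromosome 12. LOC115488100 had 15 WT and 12 KO tags, and its ratio was 0.907 (0.396 to 2.12). Gm23296 had 13 and 12, and its ratio was 0.786 (0.331 to 1.88). Both had a higher fold in KO (10.4 each) than in WT (8.56 and 7.49), where the input background was 2.55 times the genome-wide value and in KO at most 1.01 times. The gene Gm25064 on chromosome 9, also of 107 bp, had 10 tags in KO with a fold of 5.01 and the highest background of any snRNA peak, 4.81 times the genome-wide value. Annotated snRNA genes of 107 bp number 383, and these 3 were the ones with a peak. Rn7sk, the RNA that restrains transcription elongation, is typed as snRNA as well and had 18 and 11 tags.

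In the array on chromosome 12, Gm22634 had a ratio of 1.69 (0.611 to 5.37) and Gm25679 one of 1.02 (0.420 to 2.56). Over the 8 snRNA genes listed in both genotypes the ratio ran from 0.484 to 1.69 with a median of 0.992. It was above 1 at 4 genes and below 1 at 4, and all 8 intervals held 1. Intervals of this width do not show equal signal, and a gene entered only if called in both libraries.

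Of the 15 genes with an Rnu symbol, 6 were listed in WT and 1 of these also in KO. All 6 are among the 10 genes chosen by their peaks and by whether the other genotype listed one. These counts therefore describe the choice and do not measure a loss of peaks in KO. Across the 997 annotated snRNA genes, a WT summit was found at 1.6% and a KO summit at 1%. A KO overlap was lacking at 67.3% of all WT peaks and at 80.9% of the low-input ones. The Rnu genes with no peak in either list were Rnu1b1, Rnu1b2, Rnu1b6, Rnu2-10, Rnu3a, Rnu6, Rnu7, Rnu11 and Rnu12. The last 3 are the U7 gene, whose RNA processes histone messages, and the U11 and U12 genes of the minor spliceosome.

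Genes for proteins that make or use these RNAs were looked up in the same way. Of 97 such genes, 4 had a WT summit inside or within 500 bp and 2 a KO summit, which is 4.12% (1.13 to 10.2) and 2.06% (0.251 to 7.25), next to 0.918% and 0.294% of protein-coding genes. These genes were chosen with earlier results of these data known and the counts are small, so the shares are not a test of enrichment. The lists were snRNA transcription (2 of 30 genes in WT, 1 in KO), assembly of the particles (1 of 24 in WT, 0 in KO), U1 and U5 proteins (1 of 14 in each) and the U3 particle (0 of 29 in each). Snrnp70, which encodes a protein of the U1 particle, was the one listed in both. Its WT peak had 17 tags (5.52 RPM, fold 9.63) and its KO peak 10 (4.47 RPM, fold 7.89), with a ratio of 1.23 (0.533 to 3.01). Its summits were 1 bp apart, 54 and 55 bp inside the end of the gene at 45395742 on chromosome 7.

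The other 4 were listed in 1 genotype. Ints7 (10 tags, fold 8.07) and Ints2 (6 tags, fold 5.22), subunits of the Integrator complex that ends snRNA transcripts, had WT peaks within 303 bp of a gene end. Ints8, another Integrator subunit, had a KO peak of 6 tags (fold 5.60). Prmt5, the arginine methyltransferase that modifies Sm proteins, had a WT peak of 11 tags (fold 6.42). These 4 peaks were within the range of the snRNA peaks, 6 to 18 tags.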

How the data were processed

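The tools named in the submitters' processing notes are MACS2, deepTools, SAMtools, Bowtie2 and Trim Galore, and the build is mm10. MACS 2.1.1.20160309 called the peaks, per the file headers, on 1 ChIP library per genotype against the input of that genotype, with a q cutoff of 0.5, an effective genome size of 2.7e+09 and 1 tag kept per position. The deposited pileup is a signal, extended ChIP tags over the summit. The deposited fold enrichment is a ratio of pileup plus 1 to local input background plus 1. The −log10 q and −log10 p columns, as deposited, are the caller's. All are the authors' own peak values.

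Here, pileups were scaled to filtered ChIP tags, and the background was recovered from pileup and fold. A Poisson p recomputed from it lay within 5% of the deposited −log10 p for 16 of 16 WT and 10 of 10 KO snRNA peaks. Genes came from a RefSeq table (GRCm38.p6, the mm10 coordinates), matched by symbol: the table also gives Rnu1a1 as a synonym of the protein gene Snrpa, which was not used. The table gives no strand or exons, and 7 snRNA rows with coordinates outside the placed chromosomes were left out. Host strands came from the RefSeq promoter table. Promoter motifs, planned at the outset, were not analysed here.

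Intervals (95%) cover counting error only. Peaks were shared when they overlapped by 1 bp. The named genes were the 10 genes, every other snRNA gene with a peak, the genes at those summits, and listed pathway genes with a peak. The genes and lists were chosen with earlier results of these data known. Python 3.11.15, pandas 2.3.3 and SciPy 1.17.1 were used, and the assignment, overlap and intervals were checked on data made with known answers. Alternatives were other windows, q limits, overlap rules and scalings.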

Additional observations from a re-analysis of the deposited data

How the results depend on the processing

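Of 39 alternative values for 9 results, 35 stayed within 1.5 times the count or within the interval of the ratio. The 4 that moved were all counts with the summit required inside the gene: 4 of the 10 genes in WT and 0 in KO, and 6 and 3 of all annotated snRNA genes. Many alternatives had little room to move, so the count of 35 is not a measure of robustness. Every snRNA peak had a q of at most 0.00966, so the limit of 0.05 removed none. A wider window can only add genes. The intervals of the ratios are wide, from 0.495 to 2.86 at Rnu1a1. At a −log10 q of at least 5, 7 of the 10 genes were left in WT and 3 in KO. A window of 1000 bp added 1 snRNA gene in WT, Gm24265. The exclusion of Rn7sk, chosen after seeing the data, left 15 WT and 9 KO snRNA genes. Scaling by all ChIP tags, subtracting background or taking the ratio of folds gave WT/KO ratios of 1.12 to 1.62 at Rnu1a1, 0.454 to 0.592 at Gm23971 and 0.931 to 1.12 at Gm24950, the last on either side of 1. The highest value of each range is the ratio of folds, which is only partly corrected for depth. No paired analysis was possible because each group has 1 library. At 7 to 18 tags per summit, depth limits every value.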

Other observations

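Among 1330 annotated small nucleolar RNA genes, 2 had a WT summit inside or within 500 bp (0.15%) and none a KO summit, and neither is one of the genes above. Snord118, which encodes U8, an RNA that like U3 acts on the ribosomal RNA precursor, had 11 WT tags (exact Poisson 95% interval 5.49 to 19.7) and a fold of 6.42, with the summit 31 bp outside the gene. At the same signal, scaled to depth, KO would have had 7.98 tags, whose nearest summit lay 0.0102 Mb away. Snord82, inside Ncl, the nucleolin gene, had 6 WT tags (2.20 to 13.1) and a fold of 4.94, with the summit 46 bp outside the gene.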
